A study of Mus musculus with 36 samples.

Results

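The 10 genes described here mark the endothelial cells that line blood vessels, and they were followed in the tibiae of wild-type and progeria mice. They are the genes for the VEGF receptors *Kdr* and *Flt1*, the Tie receptors *Tek* and *Tie1*, the junction proteins *Cdh5* and *Pecam1*, the surface proteins *Emcn*, *Eng* and *Plvap*, and the clotting factor *Vwf*. They were chosen by symbol, and are 10 of the 56246 genes in the deposited table. The study asked whether correction of the progeria mutation by a base editor would rescue the bone. RNA came from 12 wild-type mice (*Lmna*+/+, given no injection), 12 saline-treated *LMNA* G/G mice and 12 *LMNA* G/G mice treated with the adenine base editor (ABE), with 6 males and 6 females in each group. *LMNA* G/G (genotype G608G/G608G) stands for mice homozygous for a bacterial artificial chromosome that carries the human *LMNA* gene with the mutation of Hutchinson-Gilford progeria syndrome, in addition to their own *Lmna* genes. Saline, or the ABE carried in a pair of AAV9 vectors, was injected behind the eye on day 14 after birth. All mice were 6 months old, and the bones had lost their epiphyses and marrow before extraction, so that mostly cortical bone was sampled. The titles of saline replicate 9 and of ABE replicates 2 and 11 also carry the letters WT, although their genotype and treatment labels place them in the *LMNA* G/G groups, where they were kept. Saline replicate 9 and ABE replicate 2 had the highest *Vwf* of their groups. The wild-type mice have a number series of their own, and a batch that follows this series cannot be told apart from genotype. Nor can the injection, which wild-type mice did not get. No group was given vector without the editor, so that effects of vector and of editing cannot be told apart.

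Endothelial cells form the inner wall of every vessel and hold to each other through VE-cadherin (*Cdh5*) and PECAM-1 (*Pecam1*). VEGF acts on them through VEGFR2 (*Kdr*), whereas VEGFR1 (*Flt1*) binds the same ligand tightly and can act as a decoy. In bone, vessels rich in endomucin (*Emcn*) and PECAM-1 are known as type H vessels and lie close to bone-forming cells. Angiopoietins signal through TIE2 (*Tek*), with *Tie1* as its partner.

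Promoter sequences are shown for *Flt1* and *Kdr*, which bind the same ligand and changed unequally, and for *Tek* and *Emcn*, which passed the test with *Flt1* in both *LMNA* G/G groups. *Cdh5* and *Eng* passed as higher in both groups too, and the *Eng* sequence is not printed. The sequences are from RefSeq on GRCm38.p6, where 6 of the 10 genes were matched in the table used here (*Eng*, *Emcn*, *Tek*, *Tie1*, *Kdr* and *Flt1*), and each is the 250 bases before the RefSeq start. RefSeq and GENCODE starts can differ, so that the *Emcn* and *Kdr* windows reach a few bases into the GENCODE gene given below, and most of the *Tie1* window, which is not printed, lies inside it. Capitals mark the letters AGGAAG, or CTTCCT on the other strand, which is a core recognized by ETS factors.
Flt1 (chr5:147726012-147726261, minus strand): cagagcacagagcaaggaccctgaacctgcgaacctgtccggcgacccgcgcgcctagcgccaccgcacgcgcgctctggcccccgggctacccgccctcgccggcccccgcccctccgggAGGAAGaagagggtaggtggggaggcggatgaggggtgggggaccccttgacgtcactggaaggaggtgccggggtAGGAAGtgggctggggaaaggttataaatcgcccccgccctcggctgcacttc
Kdr (chr5:75978456-75978705, minus strand): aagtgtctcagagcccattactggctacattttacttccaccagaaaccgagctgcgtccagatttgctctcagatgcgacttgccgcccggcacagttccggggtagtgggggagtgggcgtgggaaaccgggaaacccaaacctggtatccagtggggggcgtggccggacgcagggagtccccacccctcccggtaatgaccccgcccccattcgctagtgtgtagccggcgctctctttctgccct
Tek (chr4:94739039-94739288, plus strand): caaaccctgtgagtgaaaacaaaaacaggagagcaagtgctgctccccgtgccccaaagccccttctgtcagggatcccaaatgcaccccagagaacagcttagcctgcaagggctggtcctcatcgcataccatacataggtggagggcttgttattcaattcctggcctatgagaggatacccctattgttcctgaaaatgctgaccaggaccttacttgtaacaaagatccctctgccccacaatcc
Emcn (chr3:137340828-137341077, plus strand): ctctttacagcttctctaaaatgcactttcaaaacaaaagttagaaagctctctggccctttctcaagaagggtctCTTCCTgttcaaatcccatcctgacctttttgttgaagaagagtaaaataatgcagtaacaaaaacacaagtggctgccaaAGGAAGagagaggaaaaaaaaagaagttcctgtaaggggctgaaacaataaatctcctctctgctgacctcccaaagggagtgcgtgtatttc
In *Flt1* the matches began 129 and 53 bases before the start, and in *Emcn* they began 174 and 93 bases before it. *Eng* held 2 matches and *Tie1* held 1, so that 4 of the 6 windows held the letters, beside 29.5% of all 32851 windows in the table. *Kdr* and *Tek* held none. The GATA letters AGATAA (or TTATCT) were in 0 of the 6 windows and in 10% of all windows. The TATA letters TATAAA (or TTTATA) were in *Flt1* alone among the 6, and in 12.4% of all windows. A match of letters is a description of the sequence and does not show that a factor binds there.

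All 10 genes were detected in every library, with the fewest reads for *Emcn* (430 in a wild-type library) and the most for *Vwf* (48995). Libraries held between 48064068 and 116206662 reads on genes, as recovered from the deposited TPM. Values are given in scaled TPM, TPM being a gene's reads set per length of the gene and per size of the library. Scaling divided a library by 1 factor, the median over genes of its value against the geometric mean of all libraries. These factors lay between 0.219 and 1.57. The lowest belonged to ABE replicate 1, a female, which also had the highest *Flt1* and the lowest *Vwf* and *Plvap* of its group. Changes are log2 fold changes of scaled TPM + 0.5, which understates the change of *Emcn* and other low genes. They were tested with limma on 15902 genes whose mean over all libraries reached 0.5 scaled TPM. The p-values were adjusted over all of these by the Benjamini-Hochberg method. *Emcn* reached that mean only through its level in the *LMNA* G/G groups.

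In saline-treated *LMNA* G/G mice 6 of the 10 genes were higher than in wild-type (*Cdh5*, *Eng*, *Flt1*, *Plvap*, *Emcn* and *Tek*), *Vwf* was lower, and *Pecam1*, *Kdr* and *Tie1* did not pass the test. Of all genes tested 52.3% passed, 27.7% as higher and 24.6% as lower. In ABE-treated mice 8 of the 10 were higher than in wild-type, *Vwf* was lower and *Plvap* did not pass, beside 70.2% of all genes (35% higher and 35.2% lower). Between ABE-treated and saline-treated mice *Flt1*, *Pecam1*, *Tie1* and *Emcn* were higher and no member was lower, beside 48.3% of all genes (23.2% higher and 25.1% lower). The share of the 10 that passed in this last comparison was therefore below that of all genes. The median log2 change of the 10 was 0.22, 0.24 and 0.12 in these comparisons, and that of all genes 0.02, -0.02 and -0.02. The first and second comparisons share the wild-type libraries. Without the 3 *LMNA* G/G libraries with WT in the title, a choice made after seeing the data, 7, 8 and 5 of the 10 passed. *Kdr* was then lost against wild-type in ABE-treated mice (0.18, limma, adjusted p = 0.053) and *Cdh5* was gained between the *LMNA* G/G groups (0.29, adjusted p = 0.047).

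Scaling and the other cells in the bone bear on these counts. Before rescaling, the median change of all genes in deposited TPM was -0.13, -0.42 and -0.27. Against that shift, 10, 9 and 9 of the 10 genes had the direction given here, and the exceptions were *Plvap* in ABE-treated mice against wild-type and *Eng* between the *LMNA* G/G groups. Scaling by a median ratio makes nearly the same allowance, so that this agreement was largely fixed in advance and is no separate check. Without that allowance, 1, 3 and 2 of the genes passed in deposited TPM. Skeletal muscle genes summed to between 216 and 3172 scaled TPM in wild-type (median 1057), 336 and 8195 in saline-treated (2216) and 1126 and 13531 in ABE-treated mice (6607), and 10 of 12, 12 of 12 and 11 of 12 of them were higher in the 3 comparisons. With their mean as a covariate, 5, 5 and 0 endothelial genes passed. Hematopoietic genes summed to a median of 178, 188 and 126 scaled TPM, and with their mean as a covariate 7, 5 and 0 endothelial genes passed. Of the 10 hematopoietic genes tested 1, 6 and 9 passed as lower, and of 6 erythroid genes 0, 5 and 6. *Cdh5* was higher and *Vwf* lower than wild-type, in both *LMNA* G/G groups, under either covariate. Osteoblast genes, which check the tissue, summed to medians of 1355, 1349 and 1303 scaled TPM, and osteocyte genes to 29.5, 374 and 266. Cartilage genes summed to medians of 132, 16.5 and 29.0 scaled TPM, and 5 of 5 tested were lower than wild-type in both *LMNA* G/G groups. Adipocyte genes summed to medians of 49.9, 50.5 and 14.7. Of 7 osteocyte genes tested, 7 were higher than wild-type in saline-treated mice and 6 in ABE-treated mice. With group and sex means removed, osteocyte genes followed the endothelial mean with Pearson's r of 0.52 over 36 libraries, and skeletal muscle genes with 0.26. The part of osteocyte, osteoblast, cartilage and adipocyte RNA in the endothelial values was not tested. In bulk RNA, more endothelial cells and more RNA per cell cannot be told apart, nor can fewer cells and less RNA per cell.

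**Figure D1:**
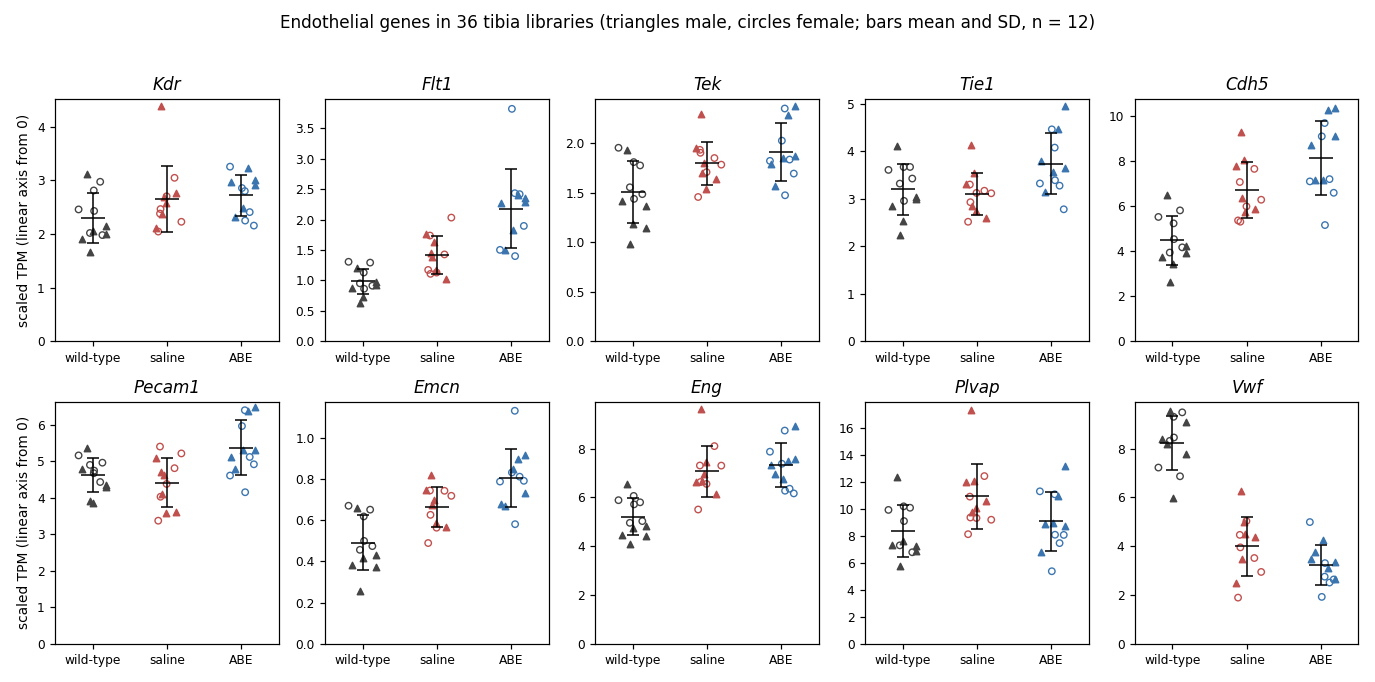
Scaled TPM of the 10 endothelial genes in each library of the 3 groups (linear axes from 0). Triangles are males, circles are females, and bars are the mean and SD of 12 libraries. *Flt1* in the 12 ABE-treated libraries lay above every wild-type library, and *Vwf* lay below every wild-type library.

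*Flt1* (chr5:147561604-147726011, minus strand, GENCODE on GRCm38) codes for VEGFR1 and had the largest rise of the 10 in ABE-treated mice. It was between 0.630 and 1.31 in wild-type mice (median 0.938), between 1.02 and 2.03 in saline-treated mice (median 1.41) and between 1.40 and 3.82 in ABE-treated mice (median 2.28), in scaled TPM. The 12 ABE-treated libraries all lay above the highest wild-type library, which was so for 4.14% of all genes tested, whereas saline-treated and wild-type libraries overlapped. The change against wild-type was 0.37 ± 0.11 (SE, adjusted p = 0.0041) in saline-treated and 0.83 ± 0.11 (SE, adjusted p = 5.1e-08) in ABE-treated mice, and the means were 44.7% and 122% higher. ABE-treated mice were above saline-treated mice by 0.46 ± 0.11 (SE, adjusted p = 0.0015), with 7 of 12 libraries above the highest saline-treated one. The value of 3.82 in ABE replicate 1 stood apart from the rest of its group. With that library left out, the log2 ratio of *Flt1* to *Kdr* between the *LMNA* G/G groups, described below, went from 0.54 to 0.47. Under the skeletal muscle and hematopoietic covariates the difference between ABE-treated and saline-treated mice was 0.24 and 0.18, and neither passed (adjusted p = 0.059 and 0.17).

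*Kdr* (chr5:75932827-75978458, minus strand) codes for VEGFR2, the main signaling receptor for VEGF on these cells. It was between 1.66 and 3.12 in wild-type mice (median 2.10), between 2.04 and 4.38 in saline-treated mice (median 2.52) and between 2.16 and 3.25 in ABE-treated mice (median 2.83), and the groups overlapped throughout. The change was 0.17 (95% confidence interval -0.02 to 0.35, adjusted p = 0.12) in saline-treated mice, and 0.21 ± 0.09 (SE, adjusted p = 0.038) in ABE-treated mice. That last call was lost (adjusted p between 0.052 and 0.080) on leaving out any 1 of WT replicates 1, 2, 3, 4, 7, 8 and 11, or of ABE replicates 1, 2, 5, 7, 8, 11 and 12. Nor did it pass with skeletal muscle, hematopoietic or platelet genes as covariate (adjusted p between 0.080 and 0.21). ABE-treated and saline-treated mice differed by 0.04 (95% confidence interval -0.14 to 0.23, adjusted p = 0.71). The highest value of any group, 4.38, was in saline replicate 9, a male that was also the highest saline-treated library for 7 other members (*Cdh5*, *Emcn*, *Tek*, *Vwf*, *Eng*, *Plvap* and *Tie1*).

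Within each library, the ratio of *Flt1* to *Kdr* compared the VEGF receptors with each other, free of the scaling of libraries. The ratio was not run with the cell covariates, so that the part of other cells in it was not tested. It was between 0.350 and 0.532 in wild-type mice (median 0.444), between 0.332 and 0.913 in saline-treated mice (0.521) and between 0.462 and 1.34 in ABE-treated mice (0.766). In log2 units the ABE-treated mean was 0.87 above wild-type (permutation test, two-sided, adjusted p = 6e-05 over 12 ratio tests) and 0.54 above saline-treated mice (adjusted p = 0.0073). All 12 ABE-treated libraries were above the wild-type median and 11 of 12 were above the saline-treated median. The rise in saline-treated mice was 0.33 (adjusted p = 0.032). It missed the threshold (p between 0.052 and 0.059, permutation test) without saline replicates 2, 6 or 11 or WT replicate 1, where it was between 0.26 and 0.31.

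Other genes of the VEGF pathway were counted from a list. In saline-treated mice 5 of 7 tested genes were higher than wild-type and none was lower, in ABE-treated mice again 5 and none, and between the *LMNA* G/G groups 3 were higher and 1 lower, beside 52.3%, 70.2% and 48.3% of all genes that passed in either direction. *Vegfa*, the main ligand of VEGFR2, was at 0.26 (adjusted p = 0.13) in saline-treated and 0.98 (adjusted p = 5.4e-07) in ABE-treated mice, and *Vegfb*, a ligand of VEGFR1, at 0.49 (adjusted p = 0.044) and 1.32 (adjusted p = 1.0e-06). Between the *LMNA* G/G groups *Vegfa* was higher by 0.72 (adjusted p = 6.8e-04) and *Vegfb* by 0.83 (adjusted p = 0.0021). Skeletal muscle genes were also highest in ABE-treated mice, and the part of muscle RNA in these ligand values was not tested. *Nrp2*, a co-receptor, rose by 0.61 (adjusted p = 7.9e-04) and 0.54 (adjusted p = 0.0015) against wild-type, and its difference between the *LMNA* G/G groups was -0.07 (adjusted p = 0.71).

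**Figure D2:**
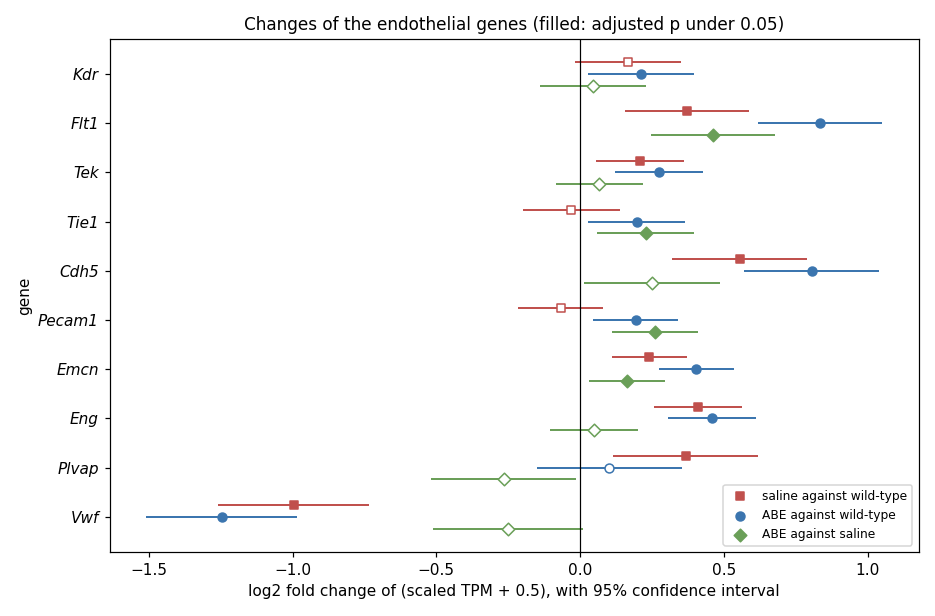
Log2 fold change of scaled TPM + 0.5 for each endothelial gene, with its 95% confidence interval, in the comparisons of saline-treated with wild-type, ABE-treated with wild-type and ABE-treated with saline-treated mice (12 libraries per group). Filled symbols passed an adjusted p of 0.05; *Vwf* stands alone on the left at -0.996 and -1.25 against wild-type.

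*Tek* (chr4:94739289-94874976, plus strand) codes for TIE2, the receptor of the angiopoietins. It was between 0.984 and 1.96 in wild-type mice (median 1.46), between 1.46 and 2.30 in saline-treated mice (median 1.79) and between 1.48 and 2.38 in ABE-treated mice (median 1.84). It was higher than wild-type by 0.21 ± 0.07 (SE, adjusted p = 0.021) in saline-treated and 0.27 ± 0.07 (SE, adjusted p = 0.0016) in ABE-treated mice, with ranges that overlapped, and the *LMNA* G/G groups differed by 0.07 (95% confidence interval -0.09 to 0.22, adjusted p = 0.48). The saline call was lost under quantile normalization and with TPM rescaled over genes of at least 500 bp (limma, adjusted p = 0.052 and 0.090). *Tie1* (chr4:118471191-118490061, minus strand) codes for the partner receptor, which binds no angiopoietin by itself. It was between 2.24 and 4.10 in wild-type mice (median 3.18), between 2.52 and 4.13 in saline-treated mice (median 3.12) and between 2.78 and 4.96 in ABE-treated mice (median 3.61). Saline-treated mice differed from wild-type by -0.03 (95% confidence interval -0.20 to 0.14, adjusted p = 0.77), and ABE-treated mice were higher than wild-type by 0.20 ± 0.08 (SE, adjusted p = 0.034) and than saline-treated mice by 0.23 ± 0.08 (SE, adjusted p = 0.023). The call against wild-type was lost (adjusted p between 0.050 and 0.078) without WT replicate 1, 5, 7 or 11 or ABE replicate 1, 5, 8 or 12, and the call against saline-treated mice without ABE replicate 12 (adjusted p = 0.051). Both were also lost under the skeletal muscle, hematopoietic and platelet covariates (adjusted p between 0.279 and 0.998), as was the rise of *Tek* in ABE-treated mice (adjusted p between 0.092 and 0.43).

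The Tie receptors therefore differed in which group was raised, and their ratio was compared directly. *Tek* to *Tie1* was between 0.384 and 0.542 in wild-type mice (median 0.471), between 0.508 and 0.651 in saline-treated mice (0.582) and between 0.435 and 0.610 in ABE-treated mice (0.512). All 12 saline-treated libraries lay above the wild-type median, and 11 of 12 ABE-treated libraries lay below the saline-treated median. The log2 ratio was 0.31 higher in saline-treated mice than in wild-type (permutation test, two-sided, adjusted p = 6e-05) and 0.14 higher in ABE-treated mice (adjusted p = 0.027). It was 0.18 lower in ABE-treated than in saline-treated mice (adjusted p = 0.0028), and left ABE-treated mice between the other groups. This ratio was not run with the cell covariates either.

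Of the other genes of the angiopoietin system, 3 of 4 tested were higher and 1 lower in saline-treated mice, 2 higher and 1 lower in ABE-treated mice, and 1 higher and 1 lower between the *LMNA* G/G groups (all genes 52.3%, 70.2% and 48.3%). *Angpt4*, a ligand, rose by 0.85 (adjusted p = 1.1e-04) and 0.69 (adjusted p = 6.6e-04) against wild-type. *Ptprb*, the phosphatase VE-PTP that acts on TIE2 and VE-cadherin, rose by 0.45 (adjusted p = 0.0018) and 0.82 (adjusted p = 3.0e-07), and was higher in ABE-treated than in saline-treated mice by 0.37 (adjusted p = 0.0098). *Angptl4*, an inhibitor of lipoprotein lipase, rose in saline-treated mice by 0.59 (adjusted p = 0.011) and was lower in ABE-treated than in saline-treated mice, at -0.77 (adjusted p = 0.0023).

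**Figure D3:**
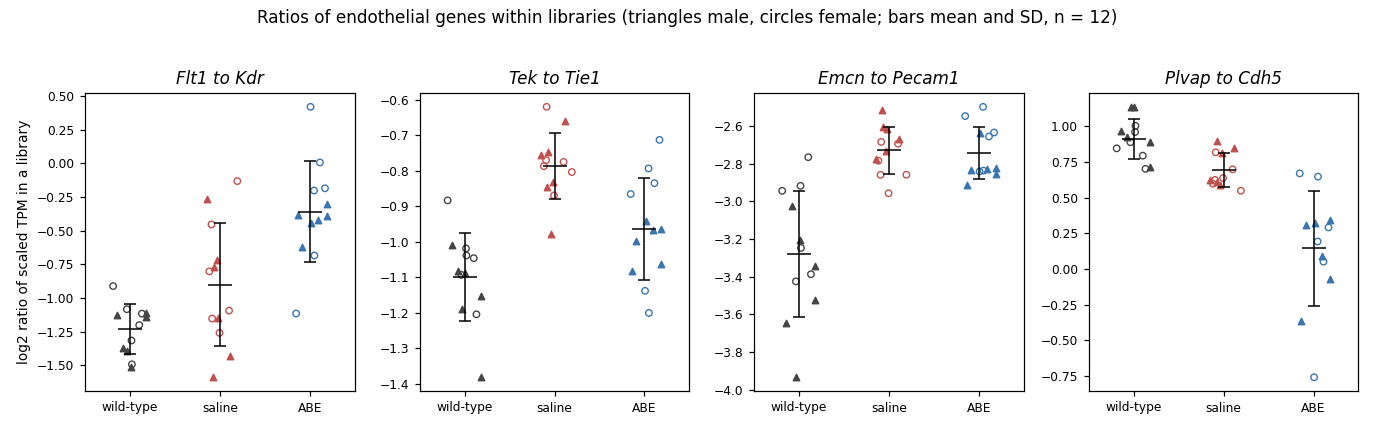
Log2 ratios of endothelial genes within each library, for *Flt1* to *Kdr*, *Tek* to *Tie1*, *Emcn* to *Pecam1* and *Plvap* to *Cdh5*. Triangles are males, circles are females, and bars are the mean and SD of 12 libraries; the *Emcn* to *Pecam1* ratio was 0.55 and 0.54 above wild-type in saline-treated and ABE-treated mice.

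*Cdh5* (chr8:104101625-104144511, plus strand) codes for VE-cadherin, the adhesion protein of endothelial junctions. It was between 2.63 and 6.51 in wild-type mice (median 4.19), between 5.30 and 9.30 in saline-treated mice (median 6.33) and between 5.15 and 10.4 in ABE-treated mice (median 7.96). All 12 saline-treated libraries were above the wild-type median, and 11 of 12 ABE-treated libraries were above the highest wild-type library. The means were 4.47 ± 1.10, 6.73 ± 1.24 and 8.13 ± 1.63 scaled TPM (SD, n = 12), and the changes against wild-type were 0.55 ± 0.12 (SE, adjusted p = 1.7e-04) and 0.80 ± 0.12 (SE, adjusted p = 3.6e-07). ABE-treated and saline-treated mice differed by 0.25 (95% confidence interval 0.01 to 0.49, adjusted p = 0.073), which passed only when ABE replicate 3 or saline replicate 9 was left out among the libraries left out in turn (adjusted p between 0.025 and 0.040).

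*Pecam1* (chr11:106654217-106750628, minus strand), also made by platelets and leukocytes, had a different course. It was between 3.85 and 5.37 in wild-type mice (median 4.71), between 3.37 and 5.40 in saline-treated mice (median 4.50) and between 4.15 and 6.47 in ABE-treated mice (median 5.21). Saline-treated and wild-type mice differed by -0.07 (95% confidence interval -0.22 to 0.08, adjusted p = 0.45), and ABE-treated mice were higher than wild-type by 0.19 ± 0.07 (SE, adjusted p = 0.019) and than saline-treated mice by 0.26 ± 0.07 (SE, adjusted p = 0.0049). Against wild-type the call was lost under each cell covariate, with -0.014 for skeletal muscle, 0.040 for hematopoietic and -0.023 for platelet genes (adjusted p = 0.92, 0.61 and 0.90). Against saline-treated mice it was lost under the same covariates (adjusted p = 0.14, 0.36 and 0.24). Only 4 of 12 ABE-treated libraries lay above the highest wild-type library.

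*Emcn* (chr3:137341067-137432185, plus strand) codes for endomucin, a sialoprotein of venous and capillary endothelium, and had the lowest level of the 10. It was between 0.255 and 0.670 in wild-type mice (median 0.465), between 0.489 and 0.821 in saline-treated mice (median 0.686) and between 0.581 and 1.13 in ABE-treated mice (median 0.801). The rise against wild-type was 0.24 ± 0.06 (SE, adjusted p = 0.0024) in saline-treated and 0.40 ± 0.06 (SE, adjusted p = 1.9e-06) in ABE-treated mice. The means, to which no pseudocount was added, stood 35.4% and 64.4% above wild-type. The wild-type mean of 0.491 was below the filter of 0.5 scaled TPM. *Emcn* was therefore tested only because of its means in the *LMNA* G/G groups (0.664 and 0.806), which limits what its rise can show. Of the ABE-treated libraries 11 of 12 lay above the highest wild-type library. The difference between the *LMNA* G/G groups was 0.16 ± 0.06 (SE, adjusted p = 0.037), and missed the threshold (adjusted p between 0.055 and 0.078) without saline replicate 1, 4, 5, 8 or 10 or ABE replicate 5, 8, 9 or 12. It did not pass in limma-voom on recovered reads. *Emcn* was between 0.065 and 0.147 times the level of *Pecam1* in wild-type mice (median 0.102), 0.129 and 0.174 in saline-treated mice (0.152) and 0.133 and 0.177 in ABE-treated mice (0.141). All libraries of both *LMNA* G/G groups were above the wild-type median. The log2 ratio was 0.55 and 0.54 above wild-type (permutation test, adjusted p = 6e-05 and 8e-05) and differed by -0.01 between the *LMNA* G/G groups (adjusted p = 0.82). In saline-treated mice the rise was 0.31 in females and 0.79 in males. That sex difference did not pass (sex labels permuted within groups, adjusted p = 0.077). The ratio was not run with the cell covariates. *Pecam1* is also made by platelets and leukocytes, and their part in the ratio was not tested.

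*Eng* (chr2:32646595-32682669, plus strand) codes for endoglin, a co-receptor for ligands of the TGF-beta and BMP family that is also found on stromal cells. It was between 4.08 and 6.54 in wild-type mice (median 4.996), between 5.51 and 9.65 in saline-treated mice (median 6.82) and between 6.17 and 8.94 in ABE-treated mice (median 7.35). The rise was 0.41 ± 0.08 (SE, adjusted p = 3.6e-05) in saline-treated and 0.46 ± 0.08 (SE, adjusted p = 2.9e-06) in ABE-treated mice, and 10 and 9 of 12 libraries lay above the highest wild-type library. The *LMNA* G/G groups differed by 0.05 (95% confidence interval -0.10 to 0.20, adjusted p = 0.61). *Eng* was also the member whose change against wild-type moved little under the cell covariates, with 0.38 and 0.40 under the skeletal muscle genes and 0.41 and 0.40 under the hematopoietic genes in the 2 groups, all of which passed.

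Of 9 tested genes of the endothelial BMP and TGF-beta arm, 7 were higher and none lower than wild-type in each *LMNA* G/G group, and 2 were higher between these groups, beside 27.7%, 35% and 23.2% of all genes called higher. *Id1* rose by 1.20 (adjusted p = 3.6e-10) and 1.27 (adjusted p = 8.1e-11) and *Id3* by 1.15 (adjusted p = 1.4e-10) and 1.03 (adjusted p = 7.6e-10) against wild-type, both being targets of BMP signaling in many cell types. *Bmpr2*, a type II receptor, rose by 0.56 (adjusted p = 9.0e-06) and 0.86 (adjusted p = 2.6e-09) and was higher still in ABE-treated than in saline-treated mice, by 0.31 (adjusted p = 0.0081). *Smad7*, a feedback inhibitor, behaved likewise, at 0.43 (adjusted p = 3.6e-04), 0.76 (adjusted p = 4.2e-08) and 0.33 (adjusted p = 0.0061). *Tgfbr2* rose by 0.40 (adjusted p = 3.7e-05) and 0.31 (adjusted p = 4.3e-04).

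*Plvap* (chr8:71497765-71511752, minus strand) forms the diaphragms of fenestrated and sinusoidal endothelium and had the highest mean of the 10 in every group. It was between 5.80 and 12.4 in wild-type mice (median 7.45), between 8.12 and 17.3 in saline-treated mice (median 10.3) and between 5.38 and 13.2 in ABE-treated mice (median 8.77). It was higher than wild-type in saline-treated mice by 0.37 ± 0.12 (SE, adjusted p = 0.014), and the difference in ABE-treated mice was 0.10 (95% confidence interval -0.15 to 0.35, adjusted p = 0.48). The saline call was lost under quantile normalization and with TPM rescaled over genes of at least 500 bp (limma, adjusted p = 0.053 and 0.078). ABE-treated against saline-treated mice gave -0.27 (95% confidence interval -0.52 to -0.01, adjusted p = 0.074), and this passed without ABE replicate 2 or 12 (adjusted p between 0.036 and 0.042). Set against *Cdh5* in the same library, *Plvap* was 1.63 to 2.20 times as high in wild-type (median 1.88), 1.46 to 1.86 times in saline-treated (1.55) and 0.591 to 1.59 times in ABE-treated mice (1.18). The log2 ratio fell by 0.22 in saline-treated mice (permutation test, adjusted p = 0.0012) and by 0.77 in ABE-treated mice (adjusted p = 6e-05), and was lower in ABE-treated than in saline-treated mice, at -0.55 (adjusted p = 8e-05). Without ABE replicate 1 the last value was -0.47. The ratio was not run with the cell covariates, and the part of residual marrow and of muscle in it was not tested.

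*Vwf* (chr6:125546774-125686679, plus strand) codes for von Willebrand factor, which endothelial cells and megakaryocytes both make and store. It was between 5.98 and 9.53 in wild-type mice (median 8.35), between 1.89 and 6.24 in saline-treated mice (median 4.17) and between 1.92 and 4.99 in ABE-treated mice (median 3.21). All 12 ABE-treated libraries and 11 of 12 saline-treated libraries lay below the lowest wild-type library, and the former was so for 4.45% of all genes tested. The changes were -0.996 ± 0.13 (SE, adjusted p = 1.2e-07) and -1.25 ± 0.13 (SE, adjusted p = 1.2e-09), and the means fell by 51.4% with saline and dropped by 60.7% with ABE against wild-type. It was lower than wild-type in both groups, and passed, under each of 19 alternatives and with each library left out. ABE-treated and saline-treated mice differed by -0.25 (95% confidence interval -0.51 to 0.01, adjusted p = 0.11), and this passed without saline replicate 1 or 11 or ABE replicate 2 (adjusted p between 0.026 and 0.039).

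Platelet and megakaryocyte genes moved with *Vwf*. Their sum was between 153 and 300.7 scaled TPM in wild-type mice (median 220.2), between 53.3 and 223 in saline-treated mice (117) and between 9.84 and 156 in ABE-treated mice (60.9), and none of the 10 was at 0 in all libraries. All 9 that were tested were lower in each of the 3 comparisons. The most abundant, *Ppbp* and *Pf4*, are platelet chemokines and had means of 78.0 and 54.4 scaled TPM (wild-type), 45.7 and 34.5 (saline) and 24.6 and 19.0 (ABE). Within groups of 12 libraries, *Vwf* followed the mean of these 9 genes (on log2 scales) with Pearson's r of 0.86 (wild-type), 0.88 (saline) and 0.86 (ABE) (permutation test, adjusted p = 0.00032 for each). Spearman's rho was 0.93, 0.86 and 0.80 (permutation test, adjusted p = 0.00012, 0.0011 and 0.0023), and r was 0.85, 0.78 and 0.67 without the 2 libraries farthest from the median. A fit with the mean of these genes as a covariate was chosen after seeing the data. In it *Vwf* was lower than wild-type by 0.59 (limma, adjusted p = 3.4e-06) and 0.48 (adjusted p = 0.0043) on the log2 scale. That mean lay between 3.34 and 4.20 in wild-type and between 0.229 and 3.29 in ABE-treated libraries. These ranges do not overlap, so that the fit cannot separate platelet RNA from group in ABE-treated mice. In that fit 4, 3 and 0 of the 10 members passed in the 3 comparisons.

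**Figure D4:**
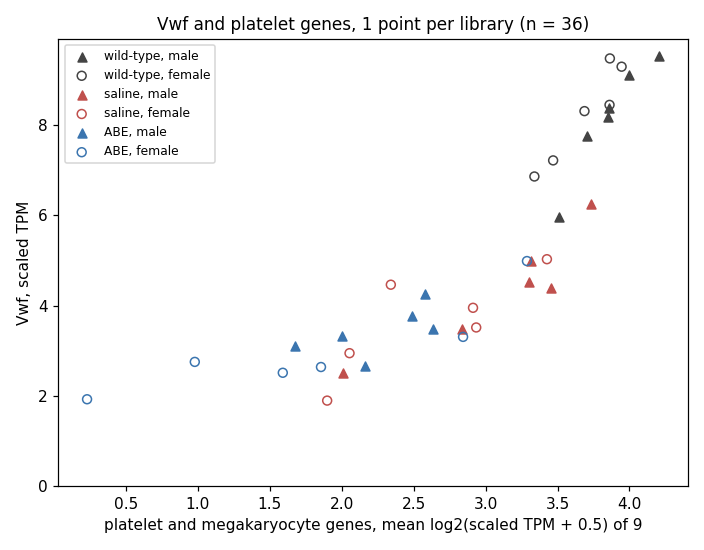
*Vwf* in scaled TPM against the mean log2(scaled TPM + 0.5) of 9 platelet and megakaryocyte genes, with 1 point per library (36 libraries; triangles are males and open circles are females). Within each group *Vwf* was higher in libraries with more platelet RNA (r = 0.86, 0.88 and 0.86 for wild-type, saline and ABE).

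The order of the levels, which TPM allows because they are corrected for gene length, changed mainly through *Vwf*. In wild-type mice the means ran from *Plvap* (8.38 ± 1.92, SD, n = 12) and *Vwf* (8.22 ± 1.11) through *Eng*, *Pecam1*, *Cdh5*, *Tie1*, *Kdr*, *Tek* and *Flt1* to *Emcn* (0.491 ± 0.133). *Plvap* and *Vwf* did not differ beyond their spread, with *Plvap* above in 6 of 12 libraries, nor did *Pecam1* and *Cdh5*, with *Pecam1* above in 8 of 12. In saline-treated mice *Vwf* (3.99 ± 1.21) came behind *Plvap*, *Eng*, *Cdh5* and *Pecam1*, and in ABE-treated mice (3.23 ± 0.836) it came after *Tie1* as well. *Cdh5* passed *Pecam1* in the *LMNA* G/G groups and lay above it in 12 of 12 saline-treated libraries. *Flt1* was below *Tek* in 12 of 12 wild-type and 11 of 12 saline-treated libraries, and above it in 7 of 12 ABE-treated libraries.

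Libraries tended to be high or low for many members at once. WT replicate 11 was the lowest wild-type library for 8 of the 10 and the highest for *Vwf*, and saline replicate 1 was the lowest saline-treated library for 8. With group and sex means removed, *Tek* followed the mean of the other 9 members most closely over the 36 libraries (Pearson's r = 0.92), then *Cdh5* (0.91), *Emcn* (0.88), *Eng* (0.87) and *Tie1* (0.87). *Flt1* was at 0.55, and *Vwf* at 0.03, with its lowest value against *Flt1* (-0.43). These correlations describe libraries that share the members' overall level and carry no test. The genes outside the 10 that followed their mean most closely were *Mmrn2* (r = 0.96), a protein of the endothelial matrix, *Peak1* (0.92), *Epas1* (0.92), which codes for HIF-2alpha, *Arhgap31* (0.90), *Sema6a* (0.90), *Robo4* (0.89), an endothelial guidance receptor, *Ldb2* (0.89) and *Ephb4* (0.88), a receptor of venous endothelium.

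**Figure D5:**
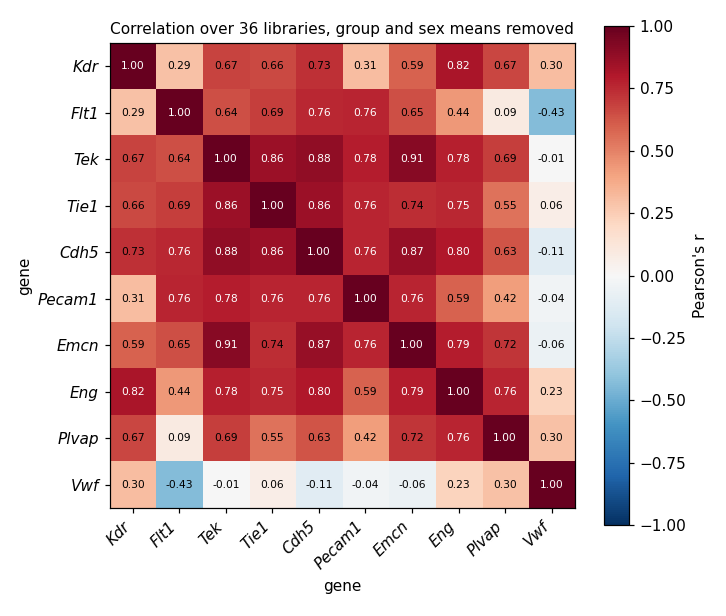
Pearson's r between the endothelial genes over 36 libraries, after the means of each group and sex were removed from log2 values. *Tek* and *Emcn* were the closest pair (0.91), and the row of *Vwf* lay between -0.43 and 0.30.

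Both sexes were sampled in each group, and no member's change against wild-type differed between males and females past the threshold. In limma with an interaction term, 0 of 10 passed for saline-treated mice (1 at an unadjusted p of 0.05, *Emcn*) and 0 of 10 for ABE-treated mice (3 unadjusted, *Cdh5*, *Tek* and *Tie1*), and limma-voom on recovered reads called 0 for both. Of all genes, 1.03% and 3.68% passed. The estimate of the male change less the female change was above 0 for all 10 genes in both comparisons, between 0.05 and 0.44 and between 0.16 and 0.50, except that *Pecam1* in saline-treated mice was at -0.12 in deposited TPM and -0.03 with array weights. The largest, for *Cdh5* in ABE-treated mice, was 0.50 (95% confidence interval 0.05 to 0.94, adjusted p = 0.19). *Cdh5* was at 4.86 ± 0.763 and 7.47 ± 1.67 scaled TPM in wild-type and ABE-treated females, and at 4.08 ± 1.31 and 8.80 ± 1.43 in males (SD, n = 6). In fits of a single sex, *Eng* and *Vwf* passed in saline-treated females, and 7 members passed in saline-treated males.

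Other genes of endothelial junctions and surfaces were counted from a list. Of 23 tested, 8 were higher and 3 lower in saline-treated mice than in wild-type, 14 higher and 2 lower in ABE-treated mice, and 13 higher and none lower between the *LMNA* G/G groups, with median log2 changes of 0.10, 0.31 and 0.21. Of all genes 52.3%, 70.2% and 48.3% passed in either direction, and by that measure the share of the list was near the background against wild-type. By direction, 27.7%, 35% and 23.2% of all genes were called higher and 24.6%, 35.2% and 25.1% lower. *Jam2*, a junctional adhesion molecule, rose most, by 1.62 (adjusted p = 2.5e-12) and 1.67 (adjusted p = 1.0e-12) against wild-type. *Adgrf5*, an adhesion receptor, rose by 0.52 (adjusted p = 4.5e-04) and 0.92 (adjusted p = 6.1e-08), and *S1pr1*, the receptor of sphingosine-1-phosphate, by 0.49 (adjusted p = 3.3e-05) and 0.76 (adjusted p = 1.4e-08). *Podxl* and *Cd34*, which code for sialomucins, were higher in ABE-treated than in saline-treated mice by 0.62 (adjusted p = 0.0013) and 0.53 (adjusted p = 2.2e-04). The abundant *Cd93* and the claudin gene *Cldn5* did not pass in any comparison, with changes between -0.08 and 0.18.

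Genes that mark kinds of vessels were counted against the same shares of all genes, which are 27.7% higher and 24.6% lower in saline-treated mice, 35% and 35.2% in ABE-treated mice and 23.2% and 25.1% between the *LMNA* G/G groups. Of 10 arterial genes, 2 were higher and 1 lower in saline-treated mice, 8 higher and 2 lower in ABE-treated mice, and 7 higher and none lower between the *LMNA* G/G groups. *Dll4*, a Notch ligand of arterial and tip cells, was at 0.04 (adjusted p = 0.79) in saline-treated mice and rose by 0.54 (adjusted p = 2.1e-05) in ABE-treated mice. *Hey1*, a Notch target, and *Sema3g* rose in ABE-treated mice by 0.56 (adjusted p = 1.1e-07) and 0.59 (adjusted p = 8.2e-05), and *Notch1* was lower in both groups, at -0.24 (adjusted p = 0.0015) and -0.30 (adjusted p = 8.0e-05). Of 7 venous and activation genes, 3 were higher and 2 lower in saline-treated mice, 2 higher and 3 lower in ABE-treated mice, and 3 were lower between the *LMNA* G/G groups. Only values that were lower are named for these genes. *Selp*, which codes for P-selectin and is also a platelet gene, fell by 0.42 (adjusted p = 0.014) and 0.94 (adjusted p = 8.5e-07) against wild-type, and *Vcam1* was lower in ABE-treated than in saline-treated mice, at -0.77 (adjusted p = 1.0e-03). *Ackr1*, a chemokine receptor of venules, was lower in ABE-treated than in saline-treated mice, at -0.53 (adjusted p = 0.0022). In that comparison 9 of 10 hematopoietic and 6 of 6 erythroid genes were lower too, and the part of residual marrow in these values was not tested.

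Of 7 sinusoidal and lymphatic genes tested, 2 were higher and none lower in saline-treated mice, 2 higher and 4 lower in ABE-treated mice, and 1 higher and 4 lower between the *LMNA* G/G groups. The share of all genes called lower was 35.2% in ABE-treated mice, in which 6 of 10 hematopoietic and 5 of 6 erythroid genes were lower too, and the part of residual marrow was not tested. *Stab2*, a scavenger receptor of sinusoids, the wide vessels of marrow, was at -0.29 (adjusted p = 0.12) in saline-treated and -1.07 (adjusted p = 4.3e-07) in ABE-treated mice, and at -0.78 (adjusted p = 6.4e-04) between them. *Pdpn*, a lymphatic gene that osteocytes also express, rose by 0.72 (adjusted p = 4.2e-06) and 0.83 (adjusted p = 2.0e-07). The genes of capillaries that take up fatty acids were higher in 3 of 7 for saline-treated mice and 5 of 7 for ABE-treated mice, with none lower in either. *Gpihbp1*, which carries lipoprotein lipase across the capillary wall, rose by 0.82 (adjusted p = 2.4e-07) and 1.03 (adjusted p = 2.3e-09). *Meox2* and *Tcf15*, transcription factors of heart and muscle capillaries, rose in ABE-treated mice by 1.10 (adjusted p = 4.3e-06) and 1.31 (adjusted p = 5.0e-07), in which muscle genes were also highest. The part of muscle vessels in these values was not tested.

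Of 12 transcription factors of endothelium, 3 were higher and 3 lower in saline-treated mice, 5 higher and 5 lower in ABE-treated mice, and 4 higher and 3 lower between the *LMNA* G/G groups, beside 52.3%, 70.2% and 48.3% of all genes in either direction. *Epas1* rose by 0.46 (adjusted p = 0.0022) and 0.67 (adjusted p = 1.3e-05). *Tal1* and *Lyl1*, which are shared with blood cell precursors, were lower in ABE-treated mice, at -1.16 (adjusted p = 1.3e-05) and -1.18 (adjusted p = 9.5e-08). *Klf2*, a gene induced by flow, was higher in ABE-treated than in saline-treated mice by 0.22 (adjusted p = 0.0064).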

How the data were processed

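RNA of tibiae was sequenced by the authors as strand-specific poly(A) libraries, aligned to GRCm38 with STAR (2.73a per the labels) and quantified on GENCODE genes with QoRTs. The authors deposited TPM for 56246 genes in 36 libraries. How TPM were calculated is not given in the sources used here, but 100% of the values above 0 were whole reads (within 0.01) once multiplied by gene length less 218 bp. The share of G and C bases per gene, a fraction the authors deposited in the same table, was used only to remove a trend. All 36 columns were mapped by name, and 0 pairs of libraries were identical.

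TPM were divided by a median ratio over the 23632 genes above 0 in every library, 0.5 was added, and log2 values of 15902 genes whose mean reached 0.5 were fitted in limma with sex as covariate. Calls needed a Benjamini-Hochberg adjusted p of 0.05. Within-library ratios were tested by two-sided permutation of the group labels (100000 resamples, exact in a single sex), adjusted over 12 tests. The sex difference of ratios was tested by permuting sex within groups, a test added after seeing the data. The fits were tested on simulated data. Alternatives are named in the closing section. The 10 genes and all gene lists were chosen with earlier results of these data known. From each vessel list the 3 genes with the highest mean and the 2 largest called changes per comparison could be named, with the 8 genes most like the members; for other cells the sum and the 2 most abundant genes were taken. Mice are separate animals, and n counts mice. Positions come from GENCODE vM21 (GRCm38) and promoters from RefSeq. Gene-level values do not separate the soluble from the membrane form of *Flt1*. Fits used limma 3.58.1 in R 4.3.3, tests used scipy 1.17.1 and numpy 2.4.6 in Python 3.11.15, and tables and plots used pandas 2.3.3 and matplotlib 3.10.9.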

Additional observations from a re-analysis of the deposited data

Results flagged for a closer look

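The log2 ratio of *Emcn* to *Pecam1* changed differently in the sexes between ABE-treated and saline-treated mice. It was 0.14 higher in ABE-treated females (exact permutation test, p = 0.087) and 0.16 lower in ABE-treated males (exact permutation test, p = 0.017), with 6 mice per sex and group. The male difference less the female difference was -0.30 (sex labels permuted within groups, two-sided, p = 0.0031, adjusted p = 0.038 over the 12 ratio comparisons), and the remaining 11 comparisons did not pass. The test was chosen after seeing the data. Neither gene passed alone in the interaction fits against wild-type described above, and no such fit was made between the *LMNA* G/G groups.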

How the results depend on the processing

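Counts of endothelial genes that passed are given for saline-treated against wild-type, ABE-treated against wild-type and ABE-treated against saline-treated mice, and were 7, 9 and 4. They stayed within 1.5 times of these under quantile normalization, a pseudocount of 0.1 or 1, no filter, no sex covariate, fits of the compared groups only, array weights, limma-voom on recovered reads, removal of the GC and length trend and, a choice made after seeing the data, removal of the *LMNA* G/G libraries with WT in the title, and were 7, 7 to 9, and 3 to 6 with 1 library left out. They were 1, 3 and 2 in TPM as deposited, 5 and 1 in the latter 2 comparisons with TPM rescaled over genes of at least 500 bp, 4, 3 and 0 with a filter at 5 scaled TPM (which tests only 4 of the 10), 2, 5 and 0 in females, and 2 in males in the last comparison. They were 5 and 0 in the latter 2 comparisons with the skeletal muscle or the hematopoietic genes as covariate, and 4, 3 and 0 with the platelet genes, a covariate chosen after seeing the data. Limma-voom called 3 in the last comparison without those covariates or filters, beside 4 in the main fit, and was not run with them. The cause of the lower counts was not tested, and the filtered and single-sex fits also held fewer genes or mice. Within the band of 1.5 times, quantile normalization gave counts of 5, 6 and 4. Against wild-type it lost *Tek* and *Plvap* in saline-treated mice, and *Pecam1*, *Kdr* and *Tie1* in ABE-treated mice. *Tek* and *Plvap* in saline-treated mice were also lost with TPM rescaled over genes of at least 500 bp.

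The direction of single genes turned as follows (log2 change). In TPM as deposited against wild-type, ABE-treated mice were at -0.32 for *Pecam1*, -0.25 for *Kdr*, -0.15 for *Tek*, -0.070 for *Eng*, -0.43 for *Plvap* and -0.29 for *Tie1*. Against saline-treated mice they were at -0.076 for *Pecam1*, -0.10 for *Cdh5*, -0.26 for *Kdr*, -0.036 for *Emcn*, -0.21 for *Tek*, -0.30 for *Eng* and -0.093 for *Tie1*. With TPM rescaled over genes of at least 500 bp, *Plvap* was at -0.018 against wild-type, and *Kdr* and *Eng* at -0.023 and -0.026 against saline-treated mice. *Plvap* in ABE-treated mice against wild-type was at -0.075 in females and -0.057 without the GC and length trend, and *Tie1* in saline-treated mice at 0.10 in males and between -0.070 and 0.00020 with 1 library left out. The muscle covariate gave -0.014 for *Pecam1* and -0.00045 for *Tie1* against wild-type and -0.019 for *Tek* against saline-treated mice, the hematopoietic covariate -0.066 for *Tek* and -0.011 for *Eng*, and the platelet covariate -0.023 for *Pecam1* against wild-type and 0.11 for *Vwf* against saline-treated mice. Set relative to the mean of *Pecam1* and *Cdh5* in the same library, which is a different quantity, saline-treated against wild-type mice gave -0.077 for *Kdr*, -0.0031 for *Emcn* and -0.036 for *Tek*. ABE-treated against wild-type mice then gave -0.31 for *Pecam1*, -0.29 for *Kdr*, -0.095 for *Emcn*, -0.22 for *Tek*, -0.041 for *Eng*, -0.40 for *Plvap* and -0.30 for *Tie1*. ABE-treated against saline-treated mice gave -0.0052 for *Cdh5*, -0.21 for *Kdr*, -0.092 for *Emcn*, -0.19 for *Tek*, -0.21 for *Eng* and -0.028 for *Tie1*. The sex difference of *Pecam1* in saline-treated mice was at -0.12 in deposited TPM and -0.028 with array weights.

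Of the ratios, *Flt1* to *Kdr* in saline-treated against wild-type mice no longer passed in females (0.37, exact permutation test, p = 0.095) or males (0.29, p = 0.22), and ranged from 0.26 to 0.39 with 1 library left out. In females it was 0.52 between the *LMNA* G/G groups (exact permutation test, p = 0.0996). *Tek* to *Tie1* in females was 0.12 against wild-type and -0.15 against saline-treated mice, and did not pass (exact permutation test, p = 0.21 and 0.14). *Emcn* to *Pecam1* between the *LMNA* G/G groups was 0.14 in females and -0.16 in males, ranged from -0.035 to 0.0066 with 1 library left out, and was 0.0041 (p = 0.93, permutation test) without the 3 *LMNA* G/G libraries with WT in the title. No paired analysis was possible because replicates were numbered in accession order and pair no mice across groups.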

Other observations

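Pericytes and smooth muscle cells wrap the vessels, and their genes followed the endothelial mean within groups and sexes (Pearson's r = 0.76 over 36 libraries, as a description). Of 9 tested, 2 were higher in saline-treated than in wild-type mice, 8 in ABE-treated mice, and 6 in ABE-treated against saline-treated mice, with none lower, beside 27.7%, 35% and 23.2% of all genes called higher. *Rgs5*, a pericyte gene, had means of 7.41 ± 2.44 (wild-type), 9.48 ± 3.61 (saline) and 16.4 ± 4.86 scaled TPM (ABE; SD, n = 12), and rose against wild-type by 1.10 on the log2 scale in ABE-treated mice (limma, adjusted p = 4.7e-06). *Cspg4*, which codes for the proteoglycan NG2, rose by 0.84 with saline and by 1.06 with ABE (limma, adjusted p = 4.4e-06 and 5.0e-08). *Acta2*, the smooth muscle actin gene, differed by 0.04 in saline-treated mice (adjusted p = 0.91) and rose by 0.66 in ABE-treated mice (adjusted p = 0.015). Skeletal muscle genes were highest in the same ABE-treated mice, and their part in these values was not tested.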
